A study of Homo sapiens with 12 samples.

Results

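The 39 protein-coding HOX genes were followed in spheroids of Caco-2, an established human line from a colorectal adenocarcinoma that takes on features of absorptive enterocytes. Members were the rows of the count table annotated as protein coding whose symbol is HOX followed by A, B, C or D and a number, which gave 39 of 48162 genes. HOXA holds 11 of them on chromosome 7 (hg19, 27132612 to 27239725), HOXB 10 on chromosome 17 (46605888 to 46806540), HOXC 9 on chromosome 12 (54332535 to 54449814) and HOXD 9 on chromosome 2 (176957619 to 177055688). The spheroids grew from passage 26 cells in Matrigel for 5 days in medium with 20% serum and were then exposed for 4 h. There were 4 groups of 3 bulk RNA libraries: methotrexate, an antifolate drug; methotrexate with lactoferrin; lactoferrin, an iron-binding protein of milk; and control, which received carrier fluid alone. All groups share the line, the passage and the gel, and no label says whether the 3 libraries are separate cultures, so p-values cover only the spread between these samples. The sources used here give no doses.

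HOX genes encode transcription factors that give cells their position along the body from head to tail. In each cluster the genes stand in the order in which they are used: low paralog numbers act towards the head (anterior), high numbers towards the tail (posterior). Cells of adult tissues, fibroblasts and gut epithelium among them, keep a set of active HOX genes that reflects where in the embryo their lineage arose, and epithelium of the large intestine is known for posterior members. Here paralogs 1 to 3 are called anterior (8 members), 4 to 8 central (15) and 9 to 13 posterior (16).

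HOX proteins bind DNA through the homeodomain, which is encoded by the homeobox of 180 bases. A homeobox was found in the GENCODE release 29 transcripts of 39 of 39 members. Codons 41 to 60 are printed in coding direction for 4 members with large rises in the methotrexate libraries (HOXB2, HOXB6, HOXD8 and HOXD9) and for 4 posterior members that were lower there with the first scaling described below (HOXC11, HOXC12, HOXC13 and HOXB13). Capitals mark codons 48 to 53, in the recognition helix that lies in the major groove of DNA.
HOXB2: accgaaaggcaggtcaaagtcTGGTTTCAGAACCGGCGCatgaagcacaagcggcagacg
HOXB6: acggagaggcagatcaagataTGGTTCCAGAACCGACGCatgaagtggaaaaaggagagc
HOXD8: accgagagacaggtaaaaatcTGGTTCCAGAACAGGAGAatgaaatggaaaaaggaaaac
HOXD9: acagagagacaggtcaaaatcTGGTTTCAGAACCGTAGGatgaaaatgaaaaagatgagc
HOXC11: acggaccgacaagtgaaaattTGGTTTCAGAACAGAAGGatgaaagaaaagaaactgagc
HOXC12: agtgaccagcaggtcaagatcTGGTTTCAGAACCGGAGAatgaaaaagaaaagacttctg
HOXC13: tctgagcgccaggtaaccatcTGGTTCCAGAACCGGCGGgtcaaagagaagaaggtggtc
HOXB13: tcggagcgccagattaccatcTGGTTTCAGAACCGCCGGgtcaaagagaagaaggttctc
The 18 capital bases differ in each of the 8 genes, and over the 39 members there are 30 distinct versions. All of them are synonymous by construction, since each homeobox was located by searching the translated transcripts for the residues these codons encode. What the search showed is that 39 of 39 members carry that run of residues. Over the full homeobox, the 6 pairs among the 4 risen genes share 56.7 to 68.9% of bases and the 6 pairs among the 4 posterior genes 58.9 to 80%. The 16 pairs between both sets share 51.7 to 70.6%.

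The windows of 250 bases before the start of HOXD8, with the largest rise, and of HOXA7, a central member that was lower in the methotrexate libraries with the same scaling, are printed from RefSeq on GRCh38.p14 (chr2:176129455-176129704, plus strand, and chr7:27156676-27156925, minus strand), each 5′ to 3′ in the direction of the gene. Capitals are not used in them, since the motif searched has no match in either.
HOXD8 promoter: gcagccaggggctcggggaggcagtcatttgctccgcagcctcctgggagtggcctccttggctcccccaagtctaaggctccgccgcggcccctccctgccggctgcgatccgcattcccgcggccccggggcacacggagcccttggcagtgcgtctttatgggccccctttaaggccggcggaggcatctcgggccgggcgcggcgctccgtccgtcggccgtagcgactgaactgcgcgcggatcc
HOXA7 promoter: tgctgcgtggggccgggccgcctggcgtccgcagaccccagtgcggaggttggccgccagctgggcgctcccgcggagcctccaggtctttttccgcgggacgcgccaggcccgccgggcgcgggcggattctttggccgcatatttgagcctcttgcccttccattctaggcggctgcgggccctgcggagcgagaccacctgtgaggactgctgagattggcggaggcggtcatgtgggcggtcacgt
Each window holds 28 CpG dinucleotides, against a median of 19 over 27 windows of 20 members with an entry and 11 over all 35116 windows of this length. The motif TGATNNAT, searched on both strands as a form of the joint HOX and PBX site, is in 3 of the 27 member windows (11.1%) and in 2273 of all windows (6.47%).

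The 3 methotrexate libraries stood apart from the other 9 in more than HOX genes. They held 47459811 to 60591667 counts, against 18714054 to 23859094 in the others, and 26285 to 27433 detected genes, against 21385 to 22520. The 12 markers of fibroblasts summed to 10709 to 12095 library-scaled counts (CPM) in them, against 107 to 122 CPM in control, and 12 of adipocytes to 15527 to 16454 CPM, against 517 to 602 CPM. All 24 of these were called higher. The 12 epithelial markers summed to 3433 to 3651 CPM, against 7028 to 7482 CPM in control, and mitochondrial transcripts took 6.67 to 7.54% of counts, against 2.00 to 3.34% in the other 9 libraries. The 7 endothelial markers summed to 9.71 to 10.7 CPM, against 1.93 to 2.68 CPM in control, where TEK and EMCN were at 0, and 4 of 4 tested were called higher. Blood markers summed to 33.8 to 41.7 CPM, against 29.2 to 32.5 CPM in control, with CD68 and HBB at 0 in both. Of the 3 tested, 2 were called higher and 1 lower, so this sum joins changes in opposite directions. Fibroblast markers summed to 112 to 122 CPM with both agents and 107 to 129 CPM with lactoferrin. With both agents VIM, 1 of the 12, was called higher, at 44, 41 and 51 counts, against 15, 16 and 13 in control (log2 fold change 1.69, edgeR adjusted p = 0.00339), and endothelial markers summed to 3.59 to 4.63 CPM. Where this extra RNA came from was not tested, and in bulk RNA fewer cells of a type and less RNA per cell cannot be told apart.

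Because of it, each comparison with the methotrexate libraries is given on 2 scales. The first is TMM, edgeR's usual normalization, under which the 16733 tested genes had a median log2 fold change of 0.03. The second, epithelial scaling, sets the libraries level on 41 brush border and tight junction genes and asks how much of a transcript there was per epithelial transcript. On it that median was 0.91, so a member needs to be read against 0.91 there.

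Control Caco-2 carried a HOX pattern led by paralog group 7. Central members made up 49.2 ± 0.927% of the family's summed level per length and posterior members 42.2 ± 0.534%. Levels between genes are given as TMM-scaled CPM per kilobase of the gene length in the table (CPM per kb), mean and SD over 3 libraries. HOXB7 led at 9.43 ± 1.24 CPM per kb. HOXA7 followed at 5.74 ± 1.07, HOXC13 (hair and nail in mouse) at 5.13 ± 0.619 and HOXB9 (thoracic ribs in mouse) at 3.87 ± 0.155 CPM per kb. HOXA9, known from myeloid leukaemia, was at 3.74 ± 0.842 CPM per kb, HOXC11 at 3.07 ± 0.0678, HOXC12 at 2.98 ± 0.913, HOXC8 (motor neurons of the forelimb level in mouse) at 2.78 ± 0.167 and HOXC4 at 2.76 ± 0.341 CPM per kb. HOXB7 stood above the rest by more than these spreads, while neighbours such as HOXA7 and HOXC13, HOXB9 and HOXA9, or HOXC11 and HOXC12 lay within 1 SD of each other. HOXB13, which marks prostate and distal colon, ranked 12th of 39 by its mean of 2.60 CPM per kb.

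Whole regions of the clusters were near silent in control. HOXD9, HOXD8, HOXB5 and HOXB2 averaged 0.068 CPM per kb or less, and HOXB1 and HOXD10 to HOXD13 had 0 counts in its 3 libraries. By cluster, HOXC made up 39.9 ± 2.32% of the summed CPM per kb, HOXA 30.9 ± 1.21%, HOXB 29 ± 1.41% and HOXD 0.279 ± 0.074% (n = 3). Neighbouring genes in HOXB differed widely, since HOXB7 and HOXB9 were among the highest members and HOXB8, in the same stretch, was at 0.18 CPM per kb.

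Of the 39 members, 32 passed the filter on low counts and were tested. In methotrexate against control, 17 of the 32 were higher, 5 lower and 10 not called with TMM scaling (edgeR quasi-likelihood test, Benjamini-Hochberg adjusted p under 0.05), and their median log2 fold change was 0.78. Over all tested genes 35.4% were called higher and 29.1% lower, with a median of 0.03. A member could also pass the filter through its methotrexate libraries alone, so this share is a description. Under epithelial scaling 24 were higher and 1 lower, where 73.9% and 0.831% of all genes were called, with a median of 1.67 against 0.91. The 17 members higher with TMM were all among those 24. With TMM 17 of the 32 had every methotrexate library above every control library and 5 had every one below, where 38.6% and 32.9% of all tested genes did. Under epithelial scaling 24 and 1 did, where the shares of all genes were 75.7% and 2%, so the members above stood near the background there. The libraries concerned are the same ones that carried the fibroblast and adipocyte markers, whose part in these counts was not tested. By the submitters' own rule, over 2-fold with adjusted p under 0.01, the edgeR results gave 15 higher and 3 lower, where 21.6% and 5.49% of all genes passed.

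**Figure D1:**
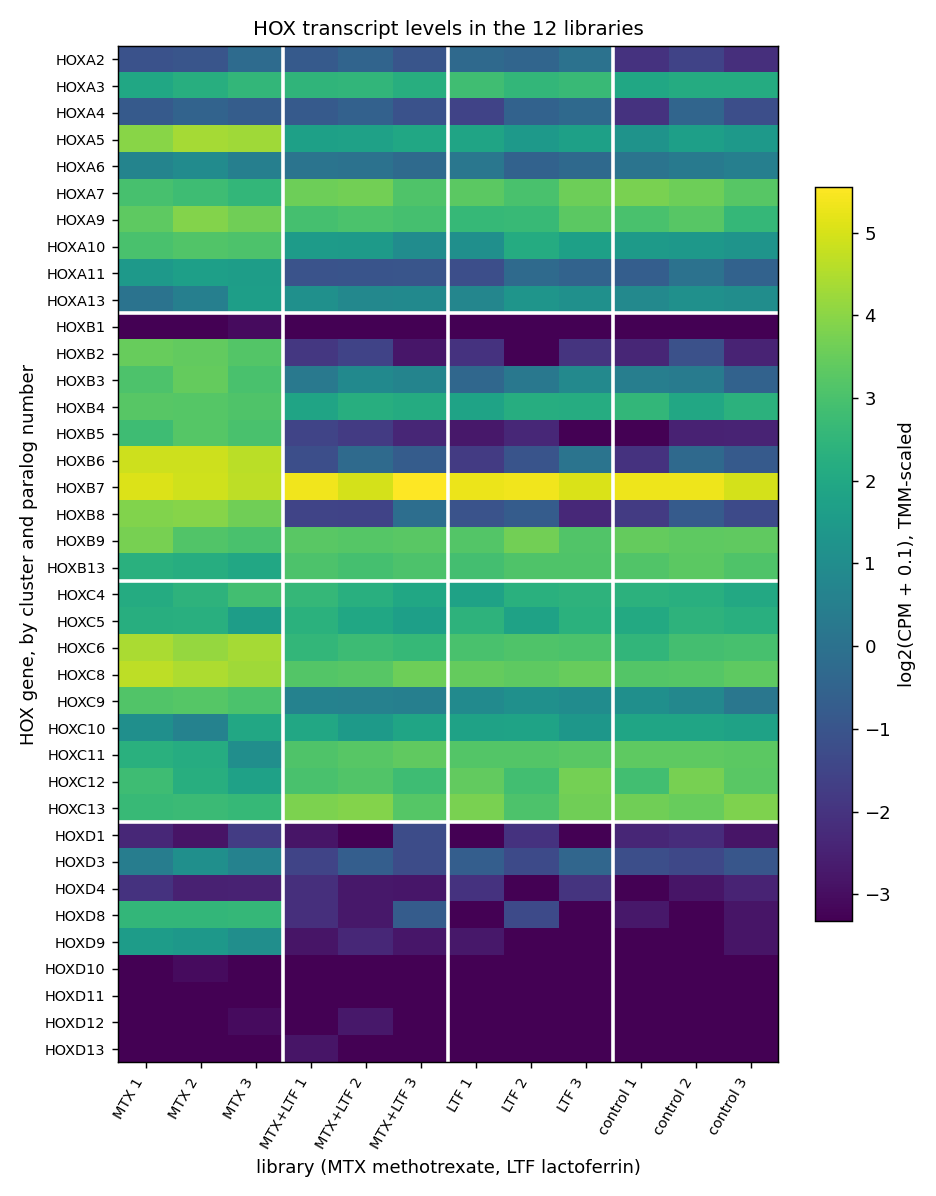
Expression of 38 HOX members (rows, ordered by cluster and paralog number) in the 12 libraries (columns, methotrexate, methotrexate with lactoferrin, lactoferrin and control), as log2(TMM-scaled CPM + 0.1). Rows are not divided by gene length and are to be read from left to right only: HOXB2, HOXB5, HOXB6, HOXB8, HOXD8 and HOXD9 are high in the 3 methotrexate libraries and near 0 in the other 9.

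Counts by cluster and by position are to be read against the 35.4% of all genes higher and 29.1% lower with TMM. They were 5 higher and 1 lower of 11 in HOXA (median 0.46), 6 and 1 of 9 in HOXB (median 3.12), 3 and 3 of 9 in HOXC (median -0.21) and 3 and 0 of the 3 tested in HOXD (median 7.05). By position, 4 of 6 anterior members were higher and 0 lower (median 1.86), 8 of 14 central members higher and 1 lower (median 1.06), and 5 of 12 posterior members higher and 4 lower (median -0.10). The counts of HOXC and of posterior members lie near those shares. HOXD8, HOXD9, HOXB5 and HOXB2 held 2, 1, 4 and 13 counts over the control libraries. Such members may have passed the filter on low counts through the methotrexate libraries alone, so counts and medians by cluster and position are a description. Under epithelial scaling the medians kept that order at 2.75, 1.95 and 0.79, with 5, 13 and 6 members higher and 0, 0 and 1 lower. Beside the 73.9% of all genes higher there, the posterior count of 6 of 12 is below the background.

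**Figure D2:**
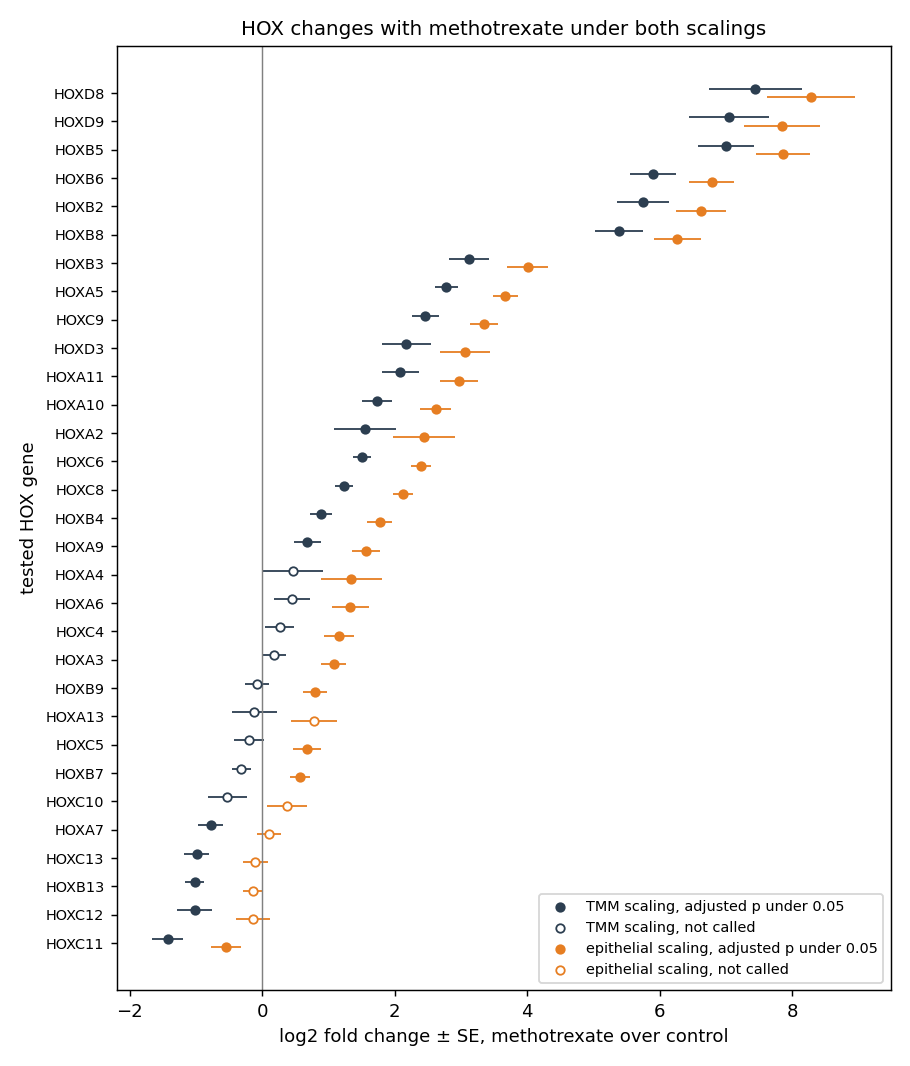
Log2 fold change of methotrexate over control with its standard error for 31 tested members, with TMM scaling and with epithelial scaling; filled points have an adjusted p under 0.05. HOXC11, HOXC12, HOXC13, HOXB13 and HOXA7 lie between -1.43 and -0.78 with TMM and between -0.55 and 0.10 under epithelial scaling, HOXA7 changing sign, while HOXD8, HOXD9 and HOXB5 lie near 7 or above with both.

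Among anterior members, HOXB2, which patterns the hindbrain, had 11.2, 10.5 and 8.99 CPM (TMM-scaled, as all CPM values of single libraries unless said otherwise) in the methotrexate libraries, against 0.0959, 0.362 and 0.0845 CPM in control. Those libraries lay far above the other 9, among which the highest value was 0.362 CPM, and the log2 fold change was 5.74 ± 0.39 (SE, adjusted p = 2.64e-09, edgeR). HOXB3, another hindbrain gene, had 8.28, 10.8 and 7.82 CPM in the methotrexate libraries, against 1.29, 1.21 and 0.592 CPM in control. It rose by 3.12 ± 0.30 (edgeR adjusted p = 1.83e-07), again with no overlap between the groups. HOXD3, which shapes the first vertebra in mouse, had 1.26, 2.04 and 1.43 CPM with methotrexate, against 0.336, 0.281 and 0.423 CPM in control, a log2 fold change of 2.18 ± 0.37 (edgeR adjusted p = 9.41e-05). All 3 are low in control and rose under both scalings.

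HOXA2, which sets the identity of the second pharyngeal arch, had 0.370, 0.407 and 0.754 CPM with methotrexate, against 0.144, 0.241 and 0.127 CPM in control. It rose by 1.55 on the log2 scale (edgeR adjusted p = 0.008) on few counts, and its 0.639 to 0.913 CPM with lactoferrin alone overlapped the methotrexate libraries. HOXA3, needed for thymus and parathyroid in mouse, was not called with TMM. It was at 3.82 to 5.72 CPM with methotrexate, against 3.84 to 4.34 CPM in control, at 0.18 with TMM and 1.08, called higher, under epithelial scaling.

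HOXD8, a central member, had the largest fitted change of the family. It had 5.77, 5.70 and 5.90 CPM (234, 294 and 297 counts) in the methotrexate libraries, against 0.0479, 0 and 0.0423 CPM (1, 0 and 1 counts) in control. Summed over libraries, 825 counts against 2 gave a 201-fold ratio with an exact 95% counting interval of 55.4 to 1662. The 3 methotrexate libraries lay close together, and the other 9 held between 0 and 11 counts each. The fitted log2 fold change was 7.44 ± 0.70 (edgeR adjusted p = 1.47e-07); with so few control counts its size depends on the fit's prior count.

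HOXB5, which places the shoulder girdle in mouse, had 6.80, 9.04 and 7.82 CPM with methotrexate, against 0, 0.0804 and 0.0845 CPM in control. Its 1136 counts against 4 gave a ratio of 138 with an interval of 53.9 to 508, and the log2 fold change was 6.99 ± 0.42 (edgeR adjusted p = 5.27e-10). HOXB6, its neighbour, had 28.9, 29.1 and 24.9 CPM with methotrexate, against 0.144, 0.723 and 0.465 CPM in control, and rose by 5.90 ± 0.35 (edgeR adjusted p = 3.78e-10). HOXB8, whose loss causes excess grooming in mouse, had 14.5, 15 and 12.3 CPM with methotrexate, against 0.192, 0.482 and 0.296 CPM in control, and rose by 5.38 ± 0.36 (edgeR adjusted p = 2.16e-09). No library of the other 9 reached 1 CPM in any of HOXB5, HOXB6 and HOXB8.

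HOXA5, which acts in the lung and thoracic skeleton of the mouse, is also used by control cells. It had 15.6, 20.5 and 19.3 CPM with methotrexate, against 2.25, 3.14 and 2.66 CPM in control, with no overlap (log2 fold change 2.78 ± 0.17, edgeR adjusted p = 8.79e-10). Per length, HOXA5 was the highest member in the methotrexate libraries at 11.1 ± 1.54 CPM per kb, ahead of HOXB6 at 8.05 ± 0.696, HOXB8 at 7.66 ± 0.791 and HOXB7 at 7.59 ± 1.05 CPM per kb, which lay within 1 SD of each other. In control HOXA5 ranked 15th.

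Smaller rises came from HOXC6, HOXC8 and HOXB4. HOXC8 had 25.3, 21.6 and 19.3 CPM with methotrexate, against 8.87, 9.24 and 9.98 CPM in control (log2 fold change 1.24), and HOXC6 17.7 to 21.1 against 5.66 to 7.78 CPM (1.5). HOXB4, used to expand blood stem cells, was at 8.54 to 9.39 against 3.90 to 5.70 CPM (0.89). All 3 passed the test with each scaling and none overlapped control. With TMM 38.6% of all tested genes had every methotrexate library above every control library. HOXA4 and HOXA6, at 0.46 and 0.45 with TMM, were not called, and were called higher at 1.35 and 1.33 under epithelial scaling. The same held for HOXC4, which drives a mutator enzyme of B cells in mouse, at 4.24, 5.20 and 7.09 CPM with methotrexate, against 5.08, 4.74 and 3.97 CPM in control (0.26 with TMM, 1.16 under epithelial scaling). HOXC5 was at -0.21 with TMM and at 0.68, called higher, under epithelial scaling.

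Neither member of paralog group 7, the leading group in control, was higher with TMM. HOXA7 had 7.74, 6.85 and 5.70 CPM with methotrexate, against 13.5, 12 and 9.26 CPM in control, lower in each library (log2 fold change -0.78 ± 0.19, edgeR adjusted p = 0.00224), but it stood at 0.10, not called, under epithelial scaling. HOXB7 had 33.7, 30.2 and 25.5 CPM with methotrexate, against 39.8, 39.9 and 31.4 CPM in control, and overlapped (-0.31 ± 0.15, edgeR adjusted p = 0.0777). It was called lower without control library 3 (-0.42, adjusted p = 0.0338) without methotrexate library 1 (-0.41, adjusted p = 0.0436) and without library 2 or 3 of both agents (adjusted p = 0.0461 and 0.048). It was called higher, at 0.57 with adjusted p = 0.00284, under epithelial scaling, where the median of all genes was 0.91. The span of HOXB7 in the table contains HOXB8 and HOXB9. The sources used here do not say how reads in such spans were assigned, so HOXB7 may share reads with both.

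Posterior members went both ways. HOXD9, which acts with HOXA9 in the forelimb of the mouse, had 2.88, 2.58 and 2.00 CPM (117, 133 and 101 counts) with methotrexate, against 0, 0 and 1 counts in control. The sums of 351 and 1 counts gave a ratio of 171 with an interval of 30.5 to 6771 (fitted log2 fold change 7.05 ± 0.60, edgeR adjusted p = 4.34e-08), and none of the other 9 libraries held more than 2 counts. HOXC9, which specifies thoracic motor neurons in mouse, had 8.70, 9.06 and 8.10 CPM with methotrexate, against 2.01, 1.65 and 1.06 CPM in control, and rose by 2.46 ± 0.20 (edgeR adjusted p = 2.8e-08). HOXA11, of forearm and kidney in mouse, had 2.71 to 3.12 against 0.527 to 0.924 CPM (2.08), and HOXA10, of the uterus in mouse, 7.86 to 8.80 against 2.28 to 2.73 CPM (1.73). HOXA9 had 10.1, 14.7 and 12.1 CPM with methotrexate, against 7.91, 9.32 and 5.88 CPM in control (0.68 ± 0.20, edgeR adjusted p = 0.00864), and lost its call without control library 3 (0.51, adjusted p = 0.0545).

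The members at the far end of the clusters did not share that rise. HOXC11 had 4.83, 4.36 and 2.00 CPM with methotrexate, against 10.2, 10.1 and 9.76 CPM in control (log2 fold change -1.43 ± 0.23, edgeR adjusted p = 4.97e-05). HOXB13 had 4.88, 4.54 and 3.93 CPM, against 8.77, 9.81 and 8.41 CPM in control (-1.02 ± 0.14, edgeR adjusted p = 1.13e-05), and HOXC13 6.26, 6.50 and 6.11 CPM, against 12.1, 11.2 and 14.2 CPM (-0.99 ± 0.19, edgeR adjusted p = 0.000321). HOXC12 had 6.88, 4.67 and 3.26 CPM with methotrexate, against 7.14, 13.2 and 9.51 CPM in control (-1.02 ± 0.27, edgeR adjusted p = 0.00359). In these 4 genes, named for their falls, every methotrexate library lay below every control library with TMM, as in 32.9% of all tested genes.

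Under epithelial scaling HOXC12, HOXB13 and HOXC13 stood at -0.14, -0.13 and -0.10, and their calls were lost. HOXC11 stayed lower at -0.55 ± 0.23 (edgeR adjusted p = 0.0355), the only member so called, and that call rested on methotrexate library 3. Its levels per epithelial transcript were 8.6, 8.12 and 3.84 CPM in the 3 methotrexate libraries, against a control mean of 10.03 CPM. Without that library HOXC11 was at -0.26 ± 0.17 (edgeR adjusted p = 0.166) under epithelial scaling, where 24 members were then higher and 0 lower. The shares of all genes were not computed without it, and with all 12 libraries they were 73.9% and 0.831%. HOXC10, HOXA13 and HOXB9 were not called with TMM, at -0.52, -0.12 and -0.08, and lay at 0.37, 0.78 and 0.80 under epithelial scaling, where HOXB9 was called higher.

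The 7 members that failed the filter were low everywhere. HOXD11 had 0 counts in all 12 libraries, and HOXB1, HOXD10, HOXD12 and HOXD13 no more than 1 count in any library. HOXD4 had 6, 4 and 4 counts with methotrexate, against 0, 1 and 2 in control, and HOXD1 4, 2 and 10, against 2, 3 and 1. In HOXD the rise was therefore measured in HOXD3, HOXD8 and HOXD9 alone, and a zero in the methotrexate libraries allows up to 3 counts, or 0.0495 to 0.0632 CPM.

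Summed over the family, the methotrexate libraries carried a more central and less posterior HOX pattern. The members' total was 107 ± 2.96 CPM per kb with methotrexate and 61.6 ± 3.46 CPM per kb in control (SD, n = 3 each). Posterior members made up 27.1 ± 0.66% of it with methotrexate and 42.2 ± 0.534% in control, central members 62.5 ± 1.37% and 49.2 ± 0.927%, and anterior members 10.4 ± 2.01% and 8.59 ± 0.442%. The posterior share was 26.4 to 27.7% over the 3 methotrexate libraries and 41.6 to 42.6% over the 3 control libraries, which do not overlap. Paralog group 13 made up 3.98 ± 0.152% with methotrexate, against 13.3 ± 1.44% in control, and group 7 10.2 ± 1.32% against 24.6 ± 2.89%. Groups 5, 6 and 8 made up 16.1, 15.2 and 15.3% with methotrexate, against 6.91, 5.90 and 4.83% in control.

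**Figure D3:**
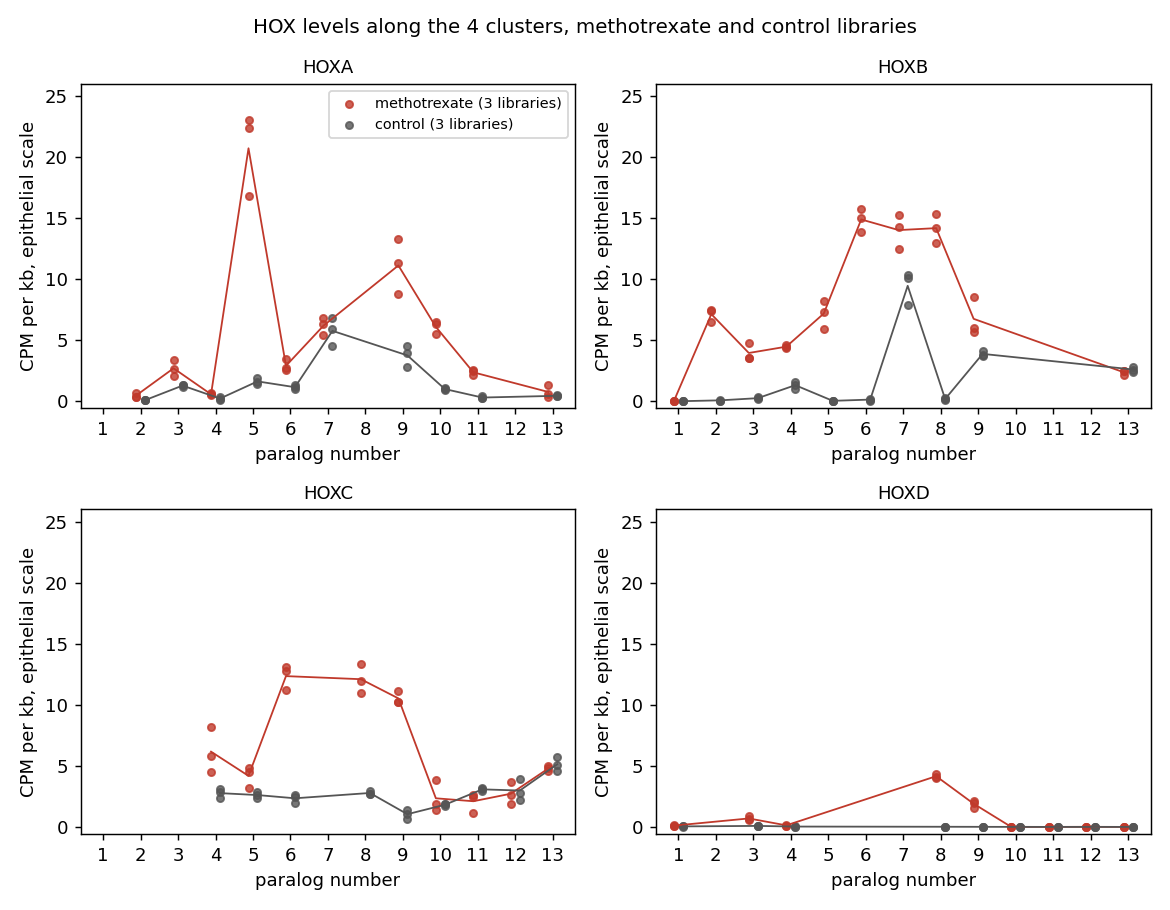
Level of members by paralog number in the 4 clusters, in CPM per kb under epithelial scaling, for methotrexate and control (points are the 3 libraries of each, lines join their means). HOXA5, HOXB6 and HOXB8 stand above control in the methotrexate libraries, while HOXC12, HOXC13 and HOXB13 lie near control and HOXC11 averages 2.10 with methotrexate, against 3.08 in control.

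Setting the libraries level on epithelial genes and subtracting the control mean from each methotrexate library gave the level found in addition to that of control, called the excess. Over all members it came to 137 CPM per kb net, against 61.6 CPM per kb in control. HOXA5 had the largest excess at 19.1 ± 3.43 CPM per kb, followed by HOXB6 at 14.8 ± 0.946, HOXB8 at 14 ± 1.19, HOXC6 at 10.003 ± 1.01, HOXC9 at 9.48 ± 0.513 and HOXC8 at 9.32 ± 1.21 CPM per kb. HOXB13, HOXC12, HOXC13 and HOXC11 had a mean below 0, between -0.23 and -0.97 CPM per kb. The leaders of control, HOXB7 and HOXA7, had an excess of 4.56 ± 1.45 and 0.42 ± 0.719 CPM per kb, beside control levels of 9.45 and 5.76 CPM per kb on this scale.

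With values below 0 set to 0, central members made up 67.3 ± 2.57% of the excess, posterior members 21.5 ± 0.191% and anterior members 11.1 ± 2.66% (SD, n = 3). The excess had 0.235 ± 0.337% in paralog group 13 and 0.182 ± 0.301% in group 12, against 13.3% and 4.82% of the total in control, and 3.70 ± 1.58% in group 7, against 24.6%. Groups 5, 6, 8 and 9 held 19.9, 19, 19.7 and 15.5% of it. By cluster, HOXB held 41.1 ± 4.59%, HOXA 29 ± 5.34%, HOXC 24.9 ± 1.75% and HOXD 4.90 ± 0.209%. The mean paralog number weighted by level was 6.44 ± 0.199 in the excess and 7.86 ± 0.0382 in control. These shares are a description, since the excess and the tests use the same libraries.

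**Figure D4:**
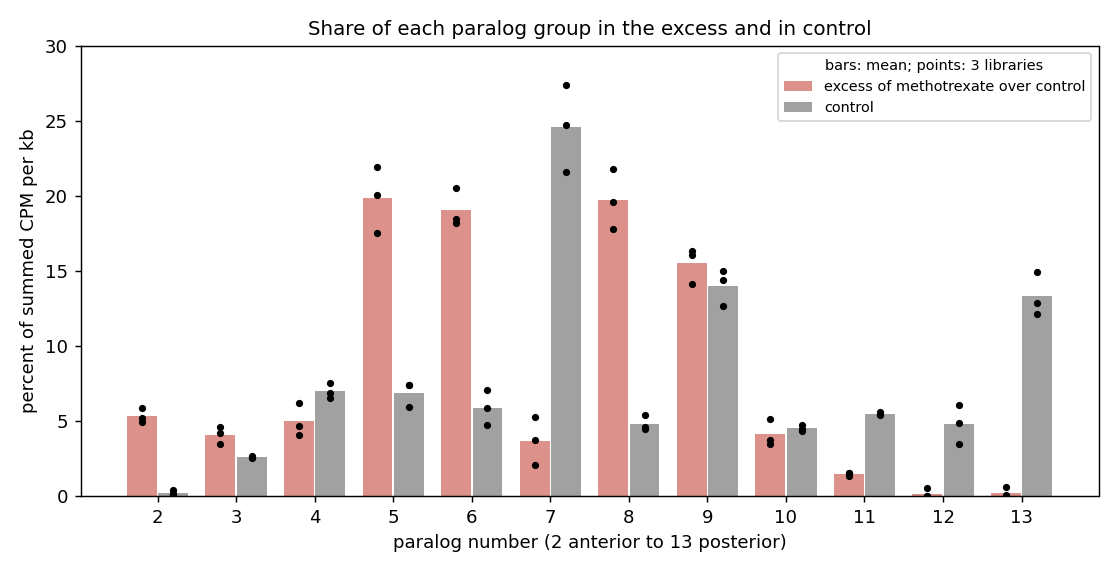
Share of paralog groups 2 to 13 in the HOX excess of the methotrexate libraries and in control, in percent of summed CPM per kb; bars are means, points the 3 libraries. Groups 5, 6 and 8 hold 19 to 19.9% of the excess and 4.83 to 6.91% of control, and groups 12 and 13 hold under 1% of the excess.

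Shared gene spans limit these sums. The spans of 21 members overlap another member, among them HOXB6, HOXB8, HOXA5 and HOXC6, and reads there could have been counted for a neighbour. Over the 18 members free of such overlap, the posterior share was 59.1% with methotrexate and 67.1% in control. Central members held 15.2% of the excess there and posterior members 54.1%. The only central members among the 18 are HOXA7 and HOXD8, so this central share depends largely on which members were left out. The posterior share was lower with methotrexate in both versions. Most central members have overlapping spans, so the sums without them cannot show whether central members hold most of the excess.

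Methotrexate library 3 differed from the other 2 of its group at several members and at intestinal factors. On the epithelial scale HOXA13, of digits and hindgut, had 1.67, 2.45 and 5.78 CPM in libraries 1, 2 and 3, so library 3 was 2.80 times the mean of the others, against a control mean of 1.92 CPM. HOXC10, of lumbar motor neurons in mouse, had 3.60, 2.63 and 7.38 CPM (2.37 times, control mean 3.51 CPM), and HOXA2 0.658, 0.758 and 1.45 CPM (2.04 times). HOXC11 went the other way, at 0.459 times. In libraries 1 and 2, HOXA13 and HOXC10 were thus near their control levels per epithelial transcript.

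The intestinal factor CDX2 was low in the same library. CDX2, a ParaHox gene that drives intestinal identity, had 247, 263 and 90.8 CPM on that scale, against a control mean of 253 CPM. ISX, an intestinal homeobox gene, was at 0.177 times the mean of the others, and PDX1, the ParaHox gene of duodenum and pancreas, at 2.40 times. These genes were singled out after their values were seen. Of the 32 tested members 4 were over 2-fold higher in library 3 and 1 over 2-fold lower, against 1.56% and 1.76% of 17069 genes with at least 50 counts. Without this library, methotrexate against control gave 16 members higher and 8 lower with TMM, and the posterior share with methotrexate was 27.5%. HOXA13 (-0.76, edgeR adjusted p = 0.0252) and HOXC10 (-1.03, adjusted p = 0.00159) were now among the lower ones. The shares of all genes were not computed without it, and with all 12 libraries they were 35.4% higher and 29.1% lower.

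**Figure D5:**
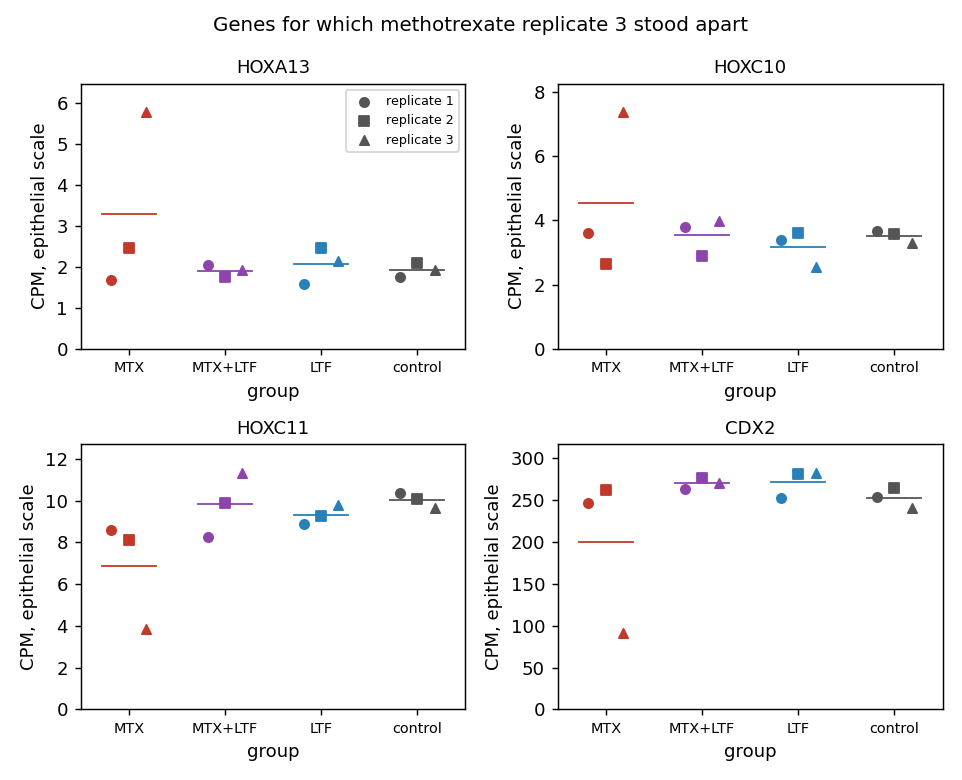
Levels of HOXA13, HOXC10, HOXC11 and CDX2 in each library of the 4 groups, in CPM under epithelial scaling; horizontal lines are group means. Methotrexate library 3 is above the other methotrexate libraries in HOXA13 and HOXC10 and below them in HOXC11 and CDX2.

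No member was called with both agents or with lactoferrin against control. In methotrexate with lactoferrin against control, and in lactoferrin against control, 0 of 32 members were called in either direction, where edgeR called 0.0299% and 0% of all genes higher and 0% lower in both. DESeq2 also called 0 members, with 0.0324% of all genes higher and 0.0036% lower with both agents and 0% each way with lactoferrin. At an unadjusted p under 0.05 there were 3 members with both agents (HOXA2 1.52, HOXD8 2.80 and HOXA11 -0.80) and 2 with lactoferrin (HOXA2 2.11 ± 0.48 and HOXA3 0.61 ± 0.18), and each had an adjusted p of 1 with edgeR. HOXD8 held 3, 1 and 11 counts with both agents, against 1, 0 and 1 in control. Both agents against lactoferrin gave 0 called members as well (0.0179% and 0% of all genes with edgeR, 0.0213% and 0% with DESeq2), with HOXB5 at 1.79 and HOXC6 at -0.39 among those under 0.05 unadjusted. Posterior members made up 39.6 ± 1.82% of the total with both agents, 40.6 ± 0.841% with lactoferrin and 42.2 ± 0.534% in control, and the totals were 61.2, 61.4 and 61.6 CPM per kb. Anterior members made up 8.94 to 10.8% with both agents and 10.1 to 10.6% with lactoferrin, against 8.25 to 9.09% in control, so the lactoferrin libraries lay above control and those with both agents overlapped it. No test was run on these shares. A member that was not called may still have changed by less than 3 libraries a group can show.

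Set against methotrexate alone, both agents together gave 6 members higher and 17 lower of 32 with TMM (28.8% and 34.4% of all genes; median -0.74, against -0.01 over all genes). This comparison uses the same methotrexate libraries as the one above. HOXB2 had 0.17, 0.243 and 0.0456 CPM with both agents, against 11.2, 10.5 and 8.99 CPM with methotrexate (log2 fold change -6.03), and HOXB6 0.34, 0.728 and 0.502, against 28.9, 29.1 and 24.9 CPM (-5.73). HOXB5, HOXD9, HOXB8 and HOXD8 were lower by 5.41, 5.26, 4.98 and 4.65 on the log2 scale, HOXB3, HOXC9 and HOXA5 by 2.63, 2.63 and 2.43, and HOXD3 by 2.10. HOXA5 had 3.19, 3.30 and 3.79 CPM with both agents, against 15.6, 20.5 and 19.3 CPM with methotrexate, with a wide gap between the groups.

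The higher ones were HOXC11 (1.33), HOXC13 (1.01), HOXB13 (0.85), HOXA7 (0.70, and -0.12 under epithelial scaling), HOXC12 (0.65, adjusted p = 0.0468, and -0.16) and HOXB7 (0.42, adjusted p = 0.0234, and -0.40). HOXC11 had 8.45, 9.32 and 10.3 CPM with both agents, against 4.83, 4.36 and 2.00 CPM with methotrexate. Leaving out methotrexate library 3 ended the calls of HOXC12 (0.43, adjusted p = 0.181) and HOXB7 (0.31, adjusted p = 0.0953). HOXC12 was also lost without methotrexate library 2, either of libraries 1 and 2 of both agents, control library 3 or lactoferrin library 1 (adjusted p of 0.0541 to 0.123) and with DESeq2 (0.63, adjusted p = 0.056), and HOXB7 without library 1 or 3 of both agents (0.0631 and 0.105). HOXA9, lower by 0.67, was lost without methotrexate library 2 (-0.53, adjusted p = 0.0528). Under epithelial scaling 1 member was higher and 22 lower, where 1.5% and 71.1% of all genes were called and the median of all genes was -0.83. By the submitters' rule 2 were higher and 15 lower (5.4% and 20.9% of all genes). The test of whether methotrexate changed a member differently with and without lactoferrin called 4 members higher and 15 lower with TMM (20.6% and 26.1% of all genes), and 0 and 22 under epithelial scaling (0.532% and 61.9%).

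Partners and regulators of HOX genes were followed as lists drawn up by known function, in methotrexate against control. Their counts are to be read against all genes, of which 35.4% were higher and 29.1% lower with TMM and 73.9% and 0.831% under epithelial scaling. Of the 9 TALE homeobox genes, whose products bind DNA together with HOX proteins, 5 were higher and 1 lower with TMM (median 0.60), and 8 and 0 under epithelial scaling (median 1.48), where 73.9% of all genes were higher. MEIS3 averaged 16.6 CPM with methotrexate and 5.94 CPM in control (1.48 ± 0.16), MEIS1 9.06 and 3.62 CPM (1.32) and MEIS2 17.9 and 11.5 CPM (0.64). PKNOX2 held 132 counts with methotrexate and 1 in control, a ratio of 64.3 with an interval of 11.3 to 2558. PBX2, at 98.4 and 167 CPM, was lower at -0.76 with TMM and at 0.12 under epithelial scaling. PBX3 (0.39, adjusted p = 0.0292) lost its call without a filter on low counts, and without methotrexate library 1 or 3 or control library 1 or 3 (adjusted p of 0.0641 to 0.126).

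Polycomb and Trithorax proteins keep HOX genes silent or active. Of 26 tested, 4 were higher and 13 lower with TMM (median -0.23), and 18 and 0 under epithelial scaling (median 0.65, below the 0.91 of all genes). With TMM 4 of 26 is below the 35.4% of all genes higher and 13 of 26 above the 29.1% lower, and 18 of 26 is near the 73.9% under epithelial scaling. EZH1, a Polycomb methyltransferase of resting cells, averaged 29.2 CPM with methotrexate and 6.75 CPM in control (2.11 ± 0.14), PHC2 128 and 55.1 CPM (1.22), and CBX7, a reader of the Polycomb mark, 12.4 and 4.48 CPM (1.47). The methyltransferase EZH2 averaged 26.2 and 47.1 CPM and its partner EED 32.5 and 57.4 CPM, lower at -0.84 and -0.82 with TMM and at 0.04 and 0.06 under epithelial scaling. CBX2, which reads the Polycomb mark, averaged 75.7 and 151 CPM, at -0.998 with TMM and at -0.11 under epithelial scaling.

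Retinoic acid switches on anterior HOX genes in embryos. Of 15 tested of 18 genes that make, carry, sense or break it down, 8 were higher and 4 lower with TMM (median 0.42), and 11 and 2 under epithelial scaling (median 1.31). The 4 lower with TMM and the 11 higher under epithelial scaling are near the shares of all genes. ALDH1A3, an enzyme that makes retinoic acid, averaged 22.2 CPM with methotrexate and 0.251 CPM in control (6.47 ± 0.29), while ALDH1A1, of the same family, averaged 150 and 325 CPM (-1.12). The binding protein CRABP2 was at 20.2 and 6.05 CPM (1.74) and CRABP1 at 24.5 and 53.7 CPM (-1.13). CYP26B1, which breaks retinoic acid down, was at 4.12 and 0.343 CPM (3.52). The receptor gene RXRG held 496 counts with methotrexate and 0 in control, at least 80.5-fold higher against 3 counts over the control group.

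Intestinal and other regional factors split. Of 10 tested of 14 ParaHox and intestinal factors, 1 was higher and 8 lower with TMM (median -1.08), and 2 and 1 under epithelial scaling (median -0.20, where the median of all genes was 0.91 and 73.9% of them were higher). HNF4A, a master factor of enterocytes, averaged 330 CPM with methotrexate and 709 CPM in control (-1.10, and -0.22 under epithelial scaling), GATA6 94.0 and 195 CPM (-1.06, and -0.18), GATA4 5.68 and 10.3 CPM (-0.85, and 0.04) and SOX9 116 and 204 CPM (-0.81, and 0.07). Methotrexate library 3 weighs on these means. On the epithelial scale libraries 1, 2 and 3 had 208, 210 and 101 CPM of GATA6, against a control mean of 195 CPM. SOX9 had 242, 246 and 156 CPM (control 204 CPM) and HNF4A 664, 672 and 488 CPM (control 709 CPM). GATA4 went the other way, at 9.66, 8.59 and 13.4 CPM (control 10.2 CPM).

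Of 24 tested of 30 regional homeobox and T-box genes outside the clusters, 14 were higher and 8 lower with TMM (median 2.72), and 17 and 0 under epithelial scaling (median 3.61). The 8 lower and the 17 higher are near the 29.1% and 73.9% of all genes. PRRX1, of limb and connective tissue, averaged 39.3 ± 1.19 CPM with methotrexate and had 0 counts in control, at least 911-fold higher. TWIST1, of mesenchyme, had 47.7, 92.5 and 103 CPM with methotrexate and 1 count in control, and TBX15, known from fat and limb, 3333 counts and 3, a ratio of 541 with an interval of 185 to 2625. EN1, of midbrain and ventral limb, averaged 12.6 CPM with methotrexate and 0.0601 CPM in control (7.67), and SHOX2, of limb and heart, 5.00 and 0.35 CPM (3.83).

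The clusters also hold noncoding genes. Of 11 tested of 20 in the table, 6 were higher and 2 lower with TMM (median 1.19), and 7 and 0 under epithelial scaling (median 2.07), where 7 of 11 is somewhat below the 73.9% of all genes. HOTAIRM1, at the anterior end of HOXA, averaged 6.89 CPM with methotrexate and 0.812 CPM in control (3.07 ± 0.30). HOXB-AS1 held 231 counts with methotrexate and 1 in control, a ratio of 112 with an interval of 20.0 to 4462, and HOXB-AS3 averaged 1.98 and 0.57 CPM (1.79). HOXC-AS1 was at 1.13 and 0.329 CPM (1.76) and HOXA11-AS at 0.723 and 0.244 CPM (1.55). HOTAIR, in the posterior part of HOXC, averaged 1.34 and 2.82 CPM, lower at -1.08 with TMM and at -0.20, not called, under epithelial scaling. These genes overlap members on the opposite strand, and the sources used here do not say whether counting used strand, so reads of a member and its antisense partner cannot be told apart.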

How the data were processed

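The study sequenced bulk RNA in pairs of reads, with 3 libraries in each of 4 groups of Caco-2 spheroids. The deposited table holds whole-number counts for 48162 genes, of which 15233 were at 0 throughout. Per the submitters' processing notes, CASAVA, STAR and DESeq2 were used with the human build hg19, and per the labels genes were called at over 2-fold with an adjusted p under 0.01. Annotation, counting program, use of strand, and whether a count is a read or a pair: not given in the sources used here. A count of 3 corresponds to 0.0495 to 0.16 CPM over the 12 libraries, and intervals cover counting error only.

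Counts were analysed with edgeR 4.0.16 in R 4.3.3: filterByExpr (16733 genes left), TMM, 1 mean per group over all 12 samples, a biological coefficient of variation of 12.9%, and the quasi-likelihood F test for 6 contrasts, adjusted by Benjamini-Hochberg over all tested genes and called under 0.05. Fold changes are on the log2 scale. Their standard errors were derived from the test, as the absolute log2 fold change divided by the square root of its F value. The fit was also run on data simulated from control levels, with few genes changed, both up and down. That run held no extra RNA as in the methotrexate libraries, so it cannot show how TMM behaves there. Epithelial scaling used the median ratio over 41 of 42 brush border and tight junction genes. CPM per kb divides by the gene length in the table, and the excess is the methotrexate level minus the mean control level under epithelial scaling. Homeobox segments came from GENCODE release 29 transcripts and promoter windows from RefSeq on GRCh38.p14.

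The members, lists and tests were chosen with earlier results of these data known. Named with values were the 10 members highest per length in control, the 10 largest rises and 10 largest falls called in methotrexate against control, members called in the comparisons without methotrexate alone, and up to 6 genes of each other list by lowest p. Other members are named where a count needs them, and HOXA13, HOXC10, CDX2, ISX and PDX1 after their values were seen. Alternatives were relative log expression factors, DESeq2 1.42.0, limma-voom (limma 3.58.1), no filter, the compared groups alone, a replicate block, the submitters' rule, epithelial scaling, thinned methotrexate libraries and leaving out each library. Added after seeing the data were sums without members that overlap another member, and epithelial scaling without methotrexate library 3. A few genes that the rule picks enter all fits, sums and counts but are not reported one by one. No 2 libraries were identical.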

Additional observations from a re-analysis of the deposited data

Results flagged for a closer look

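The test of the interaction asks whether the change from methotrexate differs with and without lactoferrin. It flagged 14 of the members named by rule, and over all tested genes it called 20.6% higher and 26.1% lower. Many of these members were named for a large rise or fall in methotrexate against control, which this test subtracts. No member was called with both agents against lactoferrin. Large values of opposite sign thus follow in part from how members were picked, and the 14 are a description. All values are log2 changes, the effect of methotrexate with lactoferrin minus that without, from edgeR with TMM scaling. Members that were higher in the methotrexate libraries had negative values. These were HOXD8 at -6.28, HOXB6 at -5.88, HOXB5 at -5.20, HOXB2 at -5.14, HOXB8 at -4.97, HOXC9 at -2.91, HOXB3 at -2.80, HOXA5 at -2.64, HOXD3 at -2.61 and HOXC8 at -1.32. HOXD8 and HOXB5 lost their calls when lactoferrin library 2 was left out, at -1.70 (adjusted p = 0.874) and -4.31 (adjusted p = 0.126). HOXD8 held 0, 6 and 0 counts in the lactoferrin libraries, and HOXB5 was at 0.0481, 0.0983 and 0 CPM there. HOXD9, at -5.41 and with 1, 0 and 0 counts in those libraries, was not called (adjusted p = 0.0658).

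Positive values came from members that were lower with methotrexate under TMM: HOXC11 at 1.47, HOXC13 at 1.14, HOXB13 at 1.00 and HOXA7 at 0.93. Under epithelial scaling these 4 stood at 0.62, 0.28, 0.15 and 0.08 and were not called. The 3 methotrexate libraries enter each of these values, and no library with both agents carried the fibroblast or adipocyte markers at their level. Whether the differences reflect lactoferrin or the methotrexate libraries themselves cannot be told apart.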

How the results depend on the processing

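Of 271 recomputed values for the counts of called members and the main shares, 259 kept their side or size. They include counts that stayed at 0 in the comparisons without methotrexate alone, so this tally is a description. Among the other recomputed values 1797 stayed the same, 53 were weaker, 6 stronger, 17 reversed and 32 moved. Lower members in methotrexate against control numbered 3 by the submitters' rule, 1 under epithelial scaling and 0 under epithelial scaling without methotrexate library 3, against 5 with TMM. With both agents against methotrexate, higher members numbered 2 and 1 under the first 2 of these, and for the interaction 0 under epithelial scaling. The posterior share was 24.8% with methotrexate and 41.4% in control without division by gene length, and 59.1% and 67.1% without members overlapping another. Central members, of which only HOXA7 and HOXD8 were left, then held 15.2% of the excess. Without members overlapping any gene only 3 low members remained, so that alternative gave no value.

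Leaving out 1 library gave 16 to 17 higher and 5 to 8 lower members in methotrexate against control (8 without methotrexate library 3), 4 to 7 higher and 15 to 17 lower with both agents against methotrexate, and 4 to 6 and 13 to 16 for the interaction. Shares of all genes called were not computed for these fits or for the replicate block. The posterior share ran from 26.8 to 27.5% with methotrexate and 42.0 to 42.5% in control, and the central excess from 66.4 to 68.8%.

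Signs turned under epithelial scaling for HOXB7 (0.57), HOXA7 (0.10), HOXB9 (0.80), PBX2 (0.12), SOX9 (0.073), GATA4 (0.042), EED (0.064) and EZH2 (0.039) in methotrexate against control, and for HOXB7 (-0.40), HOXA7 (-0.12) and HOXC12 (-0.16) with both agents against methotrexate. Under epithelial scaling without methotrexate library 3, HOXB7, HOXA7, HOXB9 and HOXC12 were at 0.65, 0.19, 0.91 and 0.067. Leaving out 1 library moved HOXB9 between -0.32 and 0.053 (above 0 without methotrexate library 2 or 3).

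Same-numbered libraries did not deviate together (18 pairs, r from -0.22 to 0.12, 2 of them over 0.1). No pairing by number was thus seen, but the labels do not say what the numbers mark. With the replicate block, methotrexate against control had 17 higher and 5 lower members, both agents against methotrexate 5 and 17, the interaction 4 and 15, and the other comparisons 0. HOXC12, at 0.66 with both agents against methotrexate, was not called with the block (adjusted p = 0.0634). The cause of these shifts was not tested. Depth limits the 7 members that failed the filter, and HOXD8, HOXD9 and HOXB5 outside the methotrexate libraries.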
